A study of Mus musculus with 15 samples.

Results

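The Wnt ligands, the Frizzled receptors and the secreted inhibitors of the SFRP and Dickkopf families were measured by microarray in primary mouse lung fibroblasts and primary mouse alveolar type II (ATII) cells, with and without β-aminopropionitrile (BAPN). Members were the probes that are not controls and whose gene name was Wnt, Fzd, Sfrp or Dkk followed by a number. This rule, which used no measured value, found 44 probes for 37 genes (19 Wnt, 10 Fzd, 4 Sfrp and 4 Dkk genes) among 46287 features, a feature being a gene or an unnamed probe. The study asked how BAPN, an irreversible inhibitor of the collagen cross-linking lysyl oxidases, changes transcripts in either cell type. The groups were fibroblasts with vehicle (phosphate-buffered saline, 4 arrays), fibroblasts with 1 mM BAPN (3 arrays), ATII cells with vehicle (4 arrays) and ATII cells with 1 mM BAPN (4 arrays), each after 24 h. Fibroblasts went through 3 or more passages and a 24 h starvation, whereas ATII cells spent 3 days as an air-liquid interface culture. Cell type therefore cannot be told apart from the way the cells were kept. The labels name no mouse strain, age or allele, and the source of each replicate (animal or culture) is not stated. The p-values thus refer to the spread between samples alone, and this spread may be technical.

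Wnt proteins are lipid-modified secreted ligands that bind Frizzled receptors together with LRP5 or LRP6 and stabilise β-catenin, which then acts with TCF/LEF factors on target genes. Some ligands instead signal through Frizzled without β-catenin, in the planar cell polarity and calcium branches. SFRP proteins bind Wnt ligands outside the cell, and most Dickkopf proteins block the LRP co-receptors. In the lung, Wnt signals from mesenchymal neighbours help to maintain ATII cells, and several ligands made by the epithelium act on the mesenchyme during development.

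Levels are given as log2 intensity minus the 75th percentile of the array, so that 0 is that percentile, and values follow the order of the replicate numbers: 1 to 4 for vehicle arrays of both cell types, 1, 2 and 4 for BAPN fibroblasts, and 1, 3, 4 and 5 for BAPN ATII cells. The share of spots above background ranged from 65.2% to 71.2% between arrays, none was saturated, and the number of arrays limits the precision. All 14 fibroblast markers were above background on every fibroblast array, but also on every ATII array, where their mean level was 4.36 to 4.64 against 5.38 to 6.05 in fibroblasts. Of 13 ATII markers, 11 were above background on every ATII array (mean level −0.27 to 0.29), and the phosphate transporter gene Slc34a2 was above background on none. Fibroblast arrays had a mean ATII marker level of −3.50 to −2.89, with Sftpa1, Sftpb, Slc34a2, Nkx2-1 and Cdh1 above background on 0 of 7 arrays. However, 6 of the 13 (Sftpd, Abca3, Lamp3, Napsa, Etv5 and Lyz2) were above background on every fibroblast array. Of these, Lyz2 was higher in fibroblasts (vehicle mean 2.46, against −1.75 in ATII cells). All 5 mesothelial markers were above background on every ATII array, and Msln reached 6.25 to 7.38 there. Among the fibroblast arrays, both arrays numbered 2 stood apart: their Msln levels were −1.43 with vehicle and −1.50 with BAPN, against 1.26 to 2.85 on the other 5, and their Wt1 levels were −4.25 and −3.84, against 1.28 to 3.22. All 5 mesothelial markers were lowest on these arrays, as were 7 of 14 fibroblast markers. Of the other fibroblast markers, Pdgfra was highest (2.86 and 2.65 against 2.08 to 2.58) and 6 were neither highest nor lowest on both. Of 10 macrophage and leukocyte markers, 7 were highest there, among them Tyrobp (2.96 and 3.37 against 1.62 to 2.19), whereas Itgam was lowest (5.51 and 5.56 against 5.72 to 6.26). For some members, among them Wnt4 and Sfrp1, the result is also given without these arrays.

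Of the 37 genes, 26 were well above background, by the scanner software's mark, on all 15 arrays (12 Wnt, 9 Fzd, 3 Sfrp and 2 Dkk genes). Wnt3, Wnt3a and Wnt6 were above background on 0 of 15 arrays, Dkk1 on 1 BAPN fibroblast array, Dkk4 on 1 vehicle fibroblast array and Fzd10 on 3 arrays. These 6 genes were left out of the comparisons of ATII cells with fibroblasts, which left 31.

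Most Wnt ligands that were detected differed between the cultures, and every Wnt gene that passed the test was higher in ATII cultures. With vehicle, 17 of the 31 tested members passed (14 higher and 3 lower in ATII cultures), 54.8%, where 31.3% of all 32470 tested features did (14.5% higher and 16.8% lower). Of the 17 members, 12 were higher and 2 lower by at least 1 on the log2 scale, where 5.65% of features were higher and 8.02% lower by as much. At an unadjusted p under 0.05 there were 18 members, against 39.4% of features. The median log2 change of the tested members was 0.32, against −0.13 over all features, a median that quantile scaling moved to −0.02 with 14 members higher and 2 lower. The same comparison on the BAPN arrays, which shares no array with the first although the spread is estimated over all arrays, gave 19 of 31 members (15 higher and 4 lower; 61.3%), where 29.3% of 32268 features passed (13.4% higher and 15.9% lower). Here 10 members were higher and 3 lower by at least 1, where 5.76% of features were higher and 8.14% lower by as much, and 22 members had an unadjusted p under 0.05, against 38.9% of features. In both comparisons 16 members passed in the same direction, 13 higher and 3 lower, which is 51.6% of those tested, where 21.2% of 31201 features did so. Whether vehicle and BAPN arrays of the same number share a source is not stated. Their agreement therefore cannot be read as independent replication. Fewer cells of a type and less RNA per cell cannot be told apart in such cultures, and markers of other cell types moved between the cultures too. With vehicle, ATII cultures had lower levels of 7 and a higher level of 1 of the 10 tested markers for macrophages and leukocytes (median log2 change −1.46), 3 of 6 airway markers were higher and 0 lower (median 1.42), and 4 of 7 alveolar type I markers were higher and 1 lower (median 2.36). Of 11 tested ATII markers 8 were higher and 1 lower (median 2.15). Among those tested, Sftpb, Sftpc, Nkx2-1 and Cdh1 were above background on 0 of 4 vehicle fibroblast arrays, as was the airway marker Foxj1. Such genes were tested and counted through their ATII arrays alone, and their fitted changes rest on fibroblast levels below background. Of 14 fibroblast markers 7 were lower (median −0.61), and of 5 mesothelial markers 1 was higher (median 1.58). The part of these cell types in the results was not tested.

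**Figure D1:**
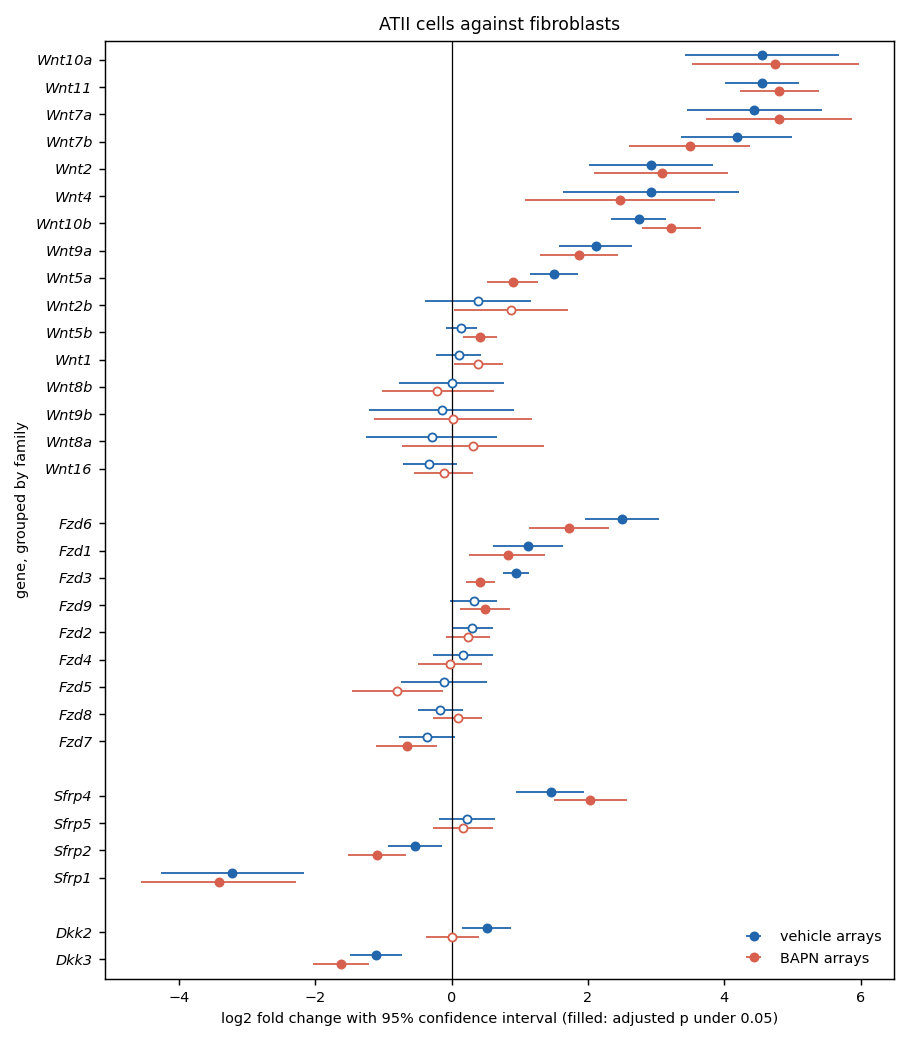
Log2 fold changes of the tested members, ATII cells minus fibroblasts, with 95% confidence intervals, on vehicle arrays (blue) and BAPN arrays (red), grouped by family. Filled points passed an adjusted p of 0.05 (limma, Benjamini-Hochberg over all features); the Wnt points reach 4.56 on vehicle arrays and no filled Wnt point lies below 0, whereas Sfrp1 and Dkk3 lie below 0 in both comparisons.

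Among the ligands, 9 of 16 tested Wnt genes were higher and 0 lower on vehicle arrays (median log2 change 1.81), and 10 of 16 were higher and 0 lower on BAPN arrays (median 1.38). That was 56.2% and 62.5%, where 31.3% and 29.3% of all features passed. Wnt11, which acts mainly through β-catenin-independent signalling, had levels of 3.49, 2.84, 2.90 and 2.50 on the vehicle ATII arrays and 3.39, 2.98, 2.49 and 2.81 on the BAPN ATII arrays, against −1.79, −1.30, −1.25 and −2.12 on the vehicle fibroblast arrays and −1.91, −1.70 and −2.07 on the BAPN fibroblast arrays. Every ATII array lay above every fibroblast array. The log2 change was 4.55 ± 0.25 (SE; 23.4-fold; 2.93 ± 0.41 against −1.62 ± 0.42, SD, n = 4 in each group; limma, adjusted p = 1.72e-08) with vehicle and 4.81 ± 0.27 (adjusted p = 2.8e-08) with BAPN. Wnt10a and Wnt10b are ligands that signal through β-catenin, and both were higher in ATII cultures. Wnt10a levels were 1.88, 0.64, 0.26 and −0.42 on the vehicle ATII arrays and 2.10, 0.51, −0.24 and 0.35 on the BAPN ATII arrays, against −4.43, −3.69, −3.59 and −4.16 on the vehicle fibroblast arrays and −4.83, −3.58 and −3.80 on the BAPN fibroblast arrays. This was a log2 change of 4.56 ± 0.52 (adjusted p = 1.76e-05) with vehicle and 4.75 ± 0.57 (adjusted p = 2.9e-05) with BAPN, and the groups did not overlap. Wnt10b levels were 0.05, −0.39, −0.19 and −0.59 on the vehicle ATII arrays and −0.05, −0.07, −0.52 and −0.44 on the BAPN ATII arrays, against −2.94, −3.10, −2.93 and −3.14 on the vehicle fibroblast arrays and −3.01, −3.73 and −3.75 on the BAPN fibroblast arrays. This ligand varied little among the ATII arrays, and its log2 change was 2.75 ± 0.19 (6.72-fold, limma, adjusted p = 1.32e-07) with vehicle and 3.22 ± 0.20 (adjusted p = 7.78e-08) with BAPN. Over the alternative settings the vehicle change ranged from 3.24 to 5.08 for Wnt10a and from 2.04 to 2.9 for Wnt10b.

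Wnt7a and Wnt7b, closely related ligands of epithelia, changed in the same way. Wnt7a levels were 1.36, 0.09, 0.26 and −0.63 on the vehicle ATII arrays and 1.66, 0.34, −0.59 and 0.18 on the BAPN ATII arrays, against −4.26, −4.24, −4.33 and −3.83 on the vehicle fibroblast arrays and −5.06, −4.01 and −4.15 on the BAPN fibroblast arrays. Wnt7b, which lung epithelium uses to signal to mesenchyme during development, had levels of 0.99, 0.18, 0.50 and 0.03 on the vehicle ATII arrays and 0.91, 0.34, −0.06 and 0.24 on the BAPN ATII arrays, against −3.15, −4.67, −2.87 and −4.34 on the vehicle fibroblast arrays and −3.61, −2.80 and −2.99 on the BAPN fibroblast arrays. The cell types did not overlap for either gene. For Wnt7a the log2 change was 4.44 ± 0.46 (21.6-fold; adjusted p = 6.72e-06) with vehicle and 4.80 ± 0.50 (adjusted p = 7.89e-06) with BAPN. For Wnt7b it was 4.18 ± 0.38 (18.1-fold, limma, adjusted p = 2.1e-06) and 3.49 ± 0.41 (adjusted p = 2.62e-05). Both calls were kept under the alternative settings, but the size depended on them. The vehicle change ranged from 3.08 to 5.11 for Wnt7a and from 2.79 to 4.61 for Wnt7b.

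Wnt9a, another ligand of the Wnt9 subfamily, had levels of 2.99, 2.36, 2.49 and 2.25 on the vehicle ATII arrays and 3.13, 2.55, 2.77 and 2.62 on the BAPN ATII arrays, against 0.84, −0.03, −0.02 and 0.84 on the vehicle fibroblast arrays and 0.77, 0.64 and 1.28 on the BAPN fibroblast arrays. Its log2 change was 2.12 ± 0.25 (adjusted p = 2.04e-05) with vehicle and 1.87 ± 0.27 (adjusted p = 0.00014) with BAPN, without overlap. Wnt5a, the best known ligand of the β-catenin-independent branches, was above background on all 15 arrays. Its levels were 3.44, 3.46, 2.94 and 3.39 on the vehicle ATII arrays and 3.25, 2.92, 3.13 and 3.15 on the BAPN ATII arrays, against 1.85, 2.02, 1.94 and 1.44 on the vehicle fibroblast arrays and 2.13, 2.49 and 2.03 on the BAPN fibroblast arrays. ATII arrays were higher throughout, by a log2 change of 1.50 ± 0.16 (adjusted p = 1.01e-05) with vehicle and 0.90 ± 0.17 (adjusted p = 0.00155) with BAPN.

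Wnt2, a mesenchymal ligand of the early lung, was dim in both cultures, at −3.28, −2.88, −2.75 and −3.48 on the vehicle ATII arrays and −3.36, −2.67, −2.90 and −2.94 on the BAPN ATII arrays, against −6.72, −5.63, −4.62 and −7.14 on the vehicle fibroblast arrays and −5.82, −5.99 and −6.33 on the BAPN fibroblast arrays. It was above background on all 8 ATII arrays but on 1 of 4 vehicle and 0 of 3 BAPN fibroblast arrays. The fitted log2 change with vehicle was 2.93 ± 0.42 (adjusted p = 0.000126), a value that rests on levels below background on 3 of 4 fibroblast arrays, and on BAPN arrays the ATII level of Wnt2 was at least 6.51-fold higher (adjusted p = 0.000186). The bound sets the ATII mean against the lowest signal well above background on each fibroblast array. The p-value on BAPN arrays belongs to the fitted change and not to the bound. That fit rests on fibroblast levels below background, and Wnt2 was tested and counted there through its ATII arrays alone. With normexp background correction the fitted Wnt2 log2 change was 0.77 (limma, adjusted p = 0.000679) with vehicle and 1.03 (adjusted p = 0.000112) on BAPN arrays. The latter is smaller than the bound, which therefore holds only for the background subtraction of the scanner software. Wnt4, a ligand known from kidney and Müllerian duct development, had levels of −0.29, 1.04, 1.18 and 1.57 on the vehicle ATII arrays and −0.03, 1.39, 1.44 and 0.98 on the BAPN ATII arrays, against −0.97, −3.76, −1.86 and −1.59 on the vehicle fibroblast arrays and −0.76, −2.53 and −1.29 on the BAPN fibroblast arrays. The arrays of the cell types did not overlap, but the fibroblast arrays spread over 3.00 log2 units and the lowest were both arrays numbered 2. The fitted log2 change was 2.92 ± 0.60 (adjusted p = 0.00193) with vehicle and 2.47 ± 0.65 (adjusted p = 0.0108) with BAPN. Without the fibroblast arrays numbered 2 it was 2.35 (adjusted p = 0.0024) and 1.97 (adjusted p = 0.0169). The call on BAPN arrays was lost without BAPN fibroblast replicate 2 alone (1.97). A separate Wnt4 probe gave 2.37 (adjusted p = 0.00264) with vehicle. On slide 1 alone the Wnt4 change was 1.86 (adjusted p = 0.0867) with vehicle, and on slide 2 alone it was 3.98 and passed.

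The other 7 tested ligands differed less. Wnt5b passed on BAPN arrays, with a log2 change of 0.41 ± 0.12 (adjusted p = 0.0164), against 0.14 ± 0.11 (adjusted p = 0.369) on vehicle arrays, and the difference of 0.27 ± 0.16 between these did not pass (limma, adjusted p = 0.471). The BAPN-array call of Wnt5b was lost without BAPN fibroblast replicate 4 (0.34). Wnt1, Wnt2b, Wnt8a, Wnt8b, Wnt9b and Wnt16 passed in neither comparison, with vehicle changes between −0.33 (Wnt16) and 0.39 (Wnt2b). On BAPN arrays Wnt2b changed by 0.87, and it passed without BAPN fibroblast replicate 1 (1.23, limma, adjusted p = 0.037). There Wnt1 changed by 0.39, and it passed with the correction for spot position (0.48, adjusted p = 0.0146). The Wnt9b change on BAPN arrays was 0.02, and 1.12 on slide 1 alone. Of the probes that did not stand for their gene, the other Wnt1 probe was above background on 5 of 15 arrays and gave 1.46 (adjusted p = 0.0436) with vehicle, so the Wnt1 probes disagree on the call.

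**Figure D2:**
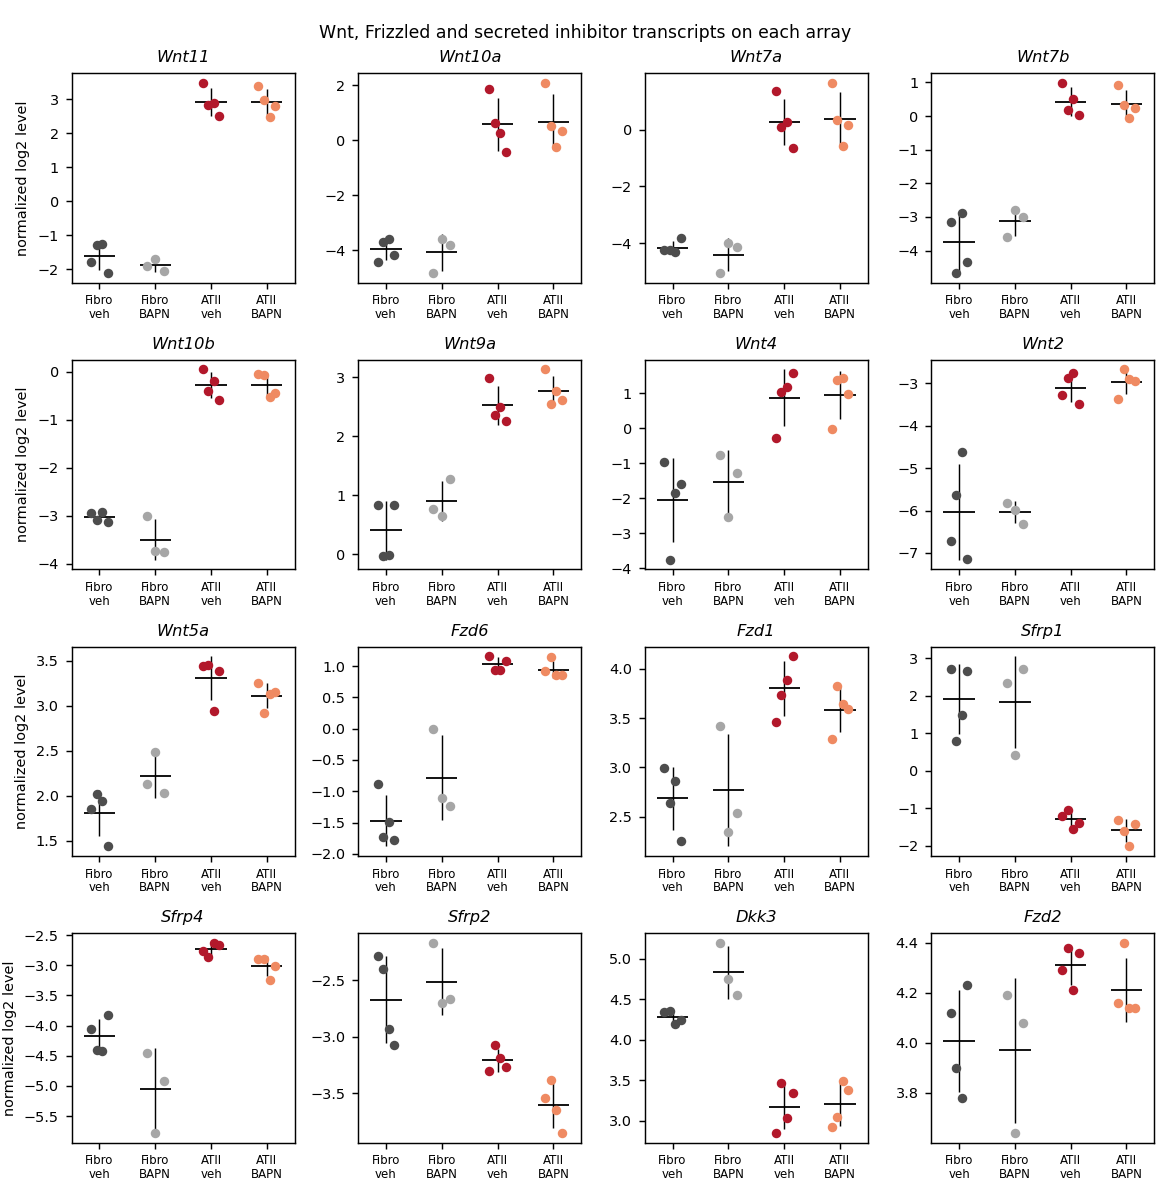
Normalized log2 levels (0 is the 75th percentile of an array) of 16 members on each of the 15 arrays, with the group mean (bar) and SD (line); grey tones are fibroblasts, red and orange ATII cells. Points of Wnt11 lie between 2.49 and 3.49 on ATII arrays and between −2.12 and −1.25 on fibroblast arrays, while Sfrp1 and Dkk3 are higher on the fibroblast arrays.

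Several ligand genes are neighbours on a chromosome, but they were not detected or changed alike. By gene order in RefSeq, 4 pairs of members lie next to each other: Wnt6 with Wnt10a on chromosome 1, Wnt3a with Wnt9a and Wnt9b with Wnt3 on chromosome 11, and Wnt10b with Wnt1 on chromosome 15. The probes of Wnt6 and Wnt10a lie 19.1 kb apart in mm9 coordinates, yet Wnt6 was above background on 0 of 15 arrays and Wnt10a on every array. Wnt3a and Wnt9a, with probes 85.3 kb apart, showed the same contrast. The probes of Wnt10b and Wnt1 lie 21.9 kb apart, and Wnt1 changed by 0.10 ± 0.15 (adjusted p = 0.69) where Wnt10b changed by 2.75. Whether the members of a pair differed in their change was not tested.

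Upstream sequences of 25 of the 37 genes were found in the RefSeq table (GRCm38.p6; 28 promoters, each read over the 250 bases before the start). Their median GC content was 69.4% (48.4% to 87.6%), against 52.4% over all 32851 promoters. Printed here, 5′ to 3′ on the gene's strand, are the promoters of 4 ligands that were higher in ATII cultures and of the neighbours Wnt1 and Wnt3a, to set side by side the sequences before neighbouring genes that differed in detection or in their change. Capitals mark matches, on either strand, to 7 motifs: TCF/LEF (CTTTGAT), AP-1 (TGANTCA), the GC box (GGGCGG), the TATA box (TATAAA), the CCAAT box (CCAAT), TEAD (GGAATG) and NKX2-1 (CAAGTG).
Wnt11, chr7:98834862-98835111, plus strand: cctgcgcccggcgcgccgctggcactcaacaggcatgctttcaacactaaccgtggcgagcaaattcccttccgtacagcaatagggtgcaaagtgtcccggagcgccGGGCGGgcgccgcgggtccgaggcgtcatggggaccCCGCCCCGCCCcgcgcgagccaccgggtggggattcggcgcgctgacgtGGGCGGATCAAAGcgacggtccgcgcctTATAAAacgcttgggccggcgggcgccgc
Wnt7a, chr6:91411354-91411603, minus strand: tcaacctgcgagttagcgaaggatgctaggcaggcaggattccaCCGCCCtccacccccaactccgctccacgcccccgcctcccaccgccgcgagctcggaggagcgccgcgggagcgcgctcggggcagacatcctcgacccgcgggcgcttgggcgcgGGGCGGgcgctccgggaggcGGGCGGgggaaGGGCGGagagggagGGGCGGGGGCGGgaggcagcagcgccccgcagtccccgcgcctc
Wnt10b, chr15:98778151-98778400, minus strand: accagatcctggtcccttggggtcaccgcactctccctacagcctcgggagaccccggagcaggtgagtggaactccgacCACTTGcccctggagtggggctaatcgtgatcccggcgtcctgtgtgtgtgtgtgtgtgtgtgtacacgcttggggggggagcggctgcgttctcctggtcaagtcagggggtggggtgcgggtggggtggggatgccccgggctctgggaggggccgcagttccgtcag
Wnt1, chr15:98789607-98789856, plus strand: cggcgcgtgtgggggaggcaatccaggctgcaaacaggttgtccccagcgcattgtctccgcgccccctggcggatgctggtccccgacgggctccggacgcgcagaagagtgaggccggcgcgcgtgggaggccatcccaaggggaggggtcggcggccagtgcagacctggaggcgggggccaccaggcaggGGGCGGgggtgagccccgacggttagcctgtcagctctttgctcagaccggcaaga
Wnt9a, chr11:59306680-59306929, plus strand: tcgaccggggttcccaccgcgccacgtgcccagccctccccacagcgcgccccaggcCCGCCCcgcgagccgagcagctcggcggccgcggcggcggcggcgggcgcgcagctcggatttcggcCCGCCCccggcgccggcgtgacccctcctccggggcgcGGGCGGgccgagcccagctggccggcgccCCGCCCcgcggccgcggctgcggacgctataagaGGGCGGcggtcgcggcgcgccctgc
Wnt3a, chr11:59290752-59291001, minus strand: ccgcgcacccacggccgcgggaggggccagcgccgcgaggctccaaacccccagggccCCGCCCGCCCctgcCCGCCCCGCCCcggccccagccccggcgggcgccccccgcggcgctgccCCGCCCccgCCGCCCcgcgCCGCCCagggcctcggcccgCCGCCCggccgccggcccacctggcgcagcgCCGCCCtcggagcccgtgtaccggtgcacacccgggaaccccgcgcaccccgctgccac

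The Wnt11 promoter printed is 1 of 2 in the table, and the other, chr7:98838595-98838844, held 0 matches to the 7 motifs. The printed promoter held a TCF/LEF match starting 51 bases before the transcript start (position −51), directly after a GC box at −57, and a TATA box at −29. TCF/LEF matches were found for 2 of the 25 genes (Wnt11 and Wnt5b) and in 3.2% of all promoters. The GC box was found for 19 of 25 genes and in 32.7% of all promoters, and Wnt3a, which was not above background on any array, held 9 matches against 6 for Wnt7a and 5 for Wnt9a. The CCAAT box was found for 10 genes (33.8% of all promoters), the TATA box for 4 (12.4%), NKX2-1 for 2, among them Wnt10b (11.6%), AP-1 for 1 (6.7%) and TEAD for 0 (12.6%). Matches of different motifs overlapped 0 times. A match is a description of these letters and not a site of binding.

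The Frizzled receptors, membrane proteins that bind the ligands, were detected broadly, and 9 of 10 were above background on all 15 arrays. On vehicle arrays 3 of 9 tested Fzd genes were higher and 0 lower (median log2 change 0.30), and on BAPN arrays 4 were higher and 1 lower (median 0.24). With vehicle this was 33.3%, close to the 31.3% of all features that passed. On BAPN arrays it was 55.6%, where 29.3% of all features passed. Fzd6, a receptor of the planar cell polarity branch, had levels of 1.16, 0.94, 0.94 and 1.08 on the vehicle ATII arrays and 0.92, 1.14, 0.85 and 0.86 on the BAPN ATII arrays, against −0.89, −1.73, −1.49 and −1.78 on the vehicle fibroblast arrays and 0.00, −1.11 and −1.24 on the BAPN fibroblast arrays. ATII arrays lay above fibroblast arrays throughout. The log2 change came to 2.50 ± 0.25 (5.67-fold; adjusted p = 4.78e-06) with vehicle and 1.72 ± 0.27 (adjusted p = 0.000289) with BAPN, and on slide 1 alone the latter was 0.97 (adjusted p = 0.0346). Fzd1, a receptor for ligands of the β-catenin branch, had levels of 3.46, 3.73, 3.89 and 4.13 on the vehicle ATII arrays and 3.29, 3.83, 3.64 and 3.59 on the BAPN ATII arrays, against 2.99, 2.64, 2.86 and 2.25 on the vehicle fibroblast arrays and 3.42, 2.35 and 2.54 on the BAPN fibroblast arrays. Its groups did not overlap with vehicle but did with BAPN, where BAPN fibroblast replicate 1 stood at 3.42. The log2 change was 1.12 ± 0.24 (adjusted p = 0.00249) with vehicle and 0.82 ± 0.26 (adjusted p = 0.0284) with BAPN, and the latter was 0.61 (adjusted p = 0.158) without the fibroblast arrays numbered 2. It was also lost without BAPN fibroblast replicate 4 (0.70) or BAPN ATII replicate 3 (0.73) or 5 (0.82).

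Fzd3, a receptor known for axon guidance, showed a smaller difference, with levels of 0.13, 0.19, 0.17 and 0.21 on the vehicle ATII arrays and 0.05, 0.02, 0.25 and 0.15 on the BAPN ATII arrays, against −0.82, −0.92, −0.66 and −0.68 on the vehicle fibroblast arrays and −0.26, −0.28 and −0.37 on the BAPN fibroblast arrays. This was a log2 change of 0.94 ± 0.09 (limma, adjusted p = 3.68e-06) with vehicle and 0.42 ± 0.10 (adjusted p = 0.00545) with BAPN. The Fzd3 call with BAPN was lost with the correction for spot position (0.35, adjusted p = 0.0573) and with the replicate block (0.40, adjusted p = 0.057). On slide 1 and slide 2 alone this change was 0.33 and 0.58. Fzd2, a receptor also used in the β-catenin-independent branches, had levels of 4.29, 4.38, 4.21 and 4.36 on the vehicle ATII arrays and 4.16, 4.40, 4.14 and 4.14 on the BAPN ATII arrays, against 4.12, 3.90, 3.78 and 4.23 on the vehicle fibroblast arrays and 4.19, 3.64 and 4.08 on the BAPN fibroblast arrays. The cell types overlapped, and the log2 changes of 0.30 ± 0.14 (adjusted p = 0.12) and 0.24 ± 0.15 (adjusted p = 0.266) did not pass. The other Fzd2 probe gave 0.50 (adjusted p = 0.0214) and 0.57 (adjusted p = 0.0176), so the probes of this gene disagree on the call.

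Fzd7 and Fzd9 passed on BAPN arrays but not on vehicle arrays, and for neither did the difference between these changes pass. For Fzd7, a receptor common in stem cells, the change was −0.66 ± 0.21 (adjusted p = 0.0284), against −0.36 ± 0.19 (adjusted p = 0.186) on vehicle arrays, with a difference of −0.30 ± 0.28 (adjusted p = 0.68). On BAPN arrays the other Fzd7 probe gave 0.36 (adjusted p = 0.0448), so the direction depends on the probe. The Fzd7 call was lost without BAPN fibroblast replicate 2 or BAPN ATII replicate 1 (−0.56 each). For Fzd9 it was 0.49 ± 0.17 (adjusted p = 0.0455), against 0.32 ± 0.16 (adjusted p = 0.154) on vehicle arrays, with a difference of 0.17 ± 0.23 (adjusted p = 0.796), and the call was lost without any of 5 BAPN arrays (fibroblast replicates 1 and 4, ATII replicates 1, 3 and 4; 0.41 to 0.52). Fzd4, Fzd5 and Fzd8 passed in neither comparison, with vehicle changes between −0.17 (Fzd8) and 0.17 (Fzd4). On BAPN arrays Fzd5 changed by −0.80, and it passed without BAPN ATII replicate 1 (−0.98) or BAPN fibroblast replicate 1 (−1.04). The other Fzd5 probe gave 0.11 there, so the direction depends on the probe.

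The secreted inhibitors moved in both directions. Of the 4 Sfrp genes, 1 was higher and 2 were lower in ATII cultures in both comparisons, and of the 2 tested Dkk genes, Dkk3 was lower in both. Sfrp1, an inhibitor that binds Wnt ligands, had levels of −1.21, −1.05, −1.56 and −1.39 on the vehicle ATII arrays and −1.31, −1.62, −2.02 and −1.43 on the BAPN ATII arrays, against 2.71, 0.80, 1.48 and 2.67 on the vehicle fibroblast arrays and 2.34, 0.43 and 2.72 on the BAPN fibroblast arrays. Every fibroblast array lay above every ATII array, and the lowest fibroblast arrays were both arrays numbered 2. The fitted log2 change was −3.22 ± 0.49 (9.29-fold; adjusted p = 0.000183) with vehicle and −3.42 ± 0.52 (adjusted p = 0.00024) with BAPN. Without the fibroblast arrays numbered 2 it was −3.59 (adjusted p = 3.36e-06) and −4.13 (adjusted p = 4.31e-06). On slide 2 alone, which held both of those arrays, it was −2.95 (adjusted p = 0.0808) with vehicle.

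Sfrp4, a further secreted Wnt-binding protein, was dim and higher in ATII cultures, at −2.76, −2.87, −2.63 and −2.67 on the vehicle ATII arrays and −2.89, −2.89, −3.24 and −3.02 on the BAPN ATII arrays, against −4.05, −4.41, −4.42 and −3.83 on the vehicle fibroblast arrays and −4.45, −5.78 and −4.91 on the BAPN fibroblast arrays. The log2 change came to 1.45 ± 0.23 (adjusted p = 0.000297) with vehicle and 2.03 ± 0.25 (adjusted p = 3.69e-05) with BAPN, without overlap. With normexp background correction the Sfrp4 changes were 0.63 (adjusted p = 0.00162) and 0.86 (adjusted p = 0.000301), and on slide 2 alone the vehicle call was lost (1.35, adjusted p = 0.0543). Sfrp2, another Wnt-binding family member, had levels of −3.30, −3.07, −3.19 and −3.27 on the vehicle ATII arrays and −3.54, −3.38, −3.65 and −3.85 on the BAPN ATII arrays, against −2.29, −2.40, −2.93 and −3.07 on the vehicle fibroblast arrays and −2.17, −2.70 and −2.67 on the BAPN fibroblast arrays. The log2 change was −0.54 ± 0.18 (adjusted p = 0.04) with vehicle, which 15 of 23 alternative settings no longer called (among them leaving out vehicle fibroblast replicate 1 or 2 or any vehicle ATII array, −0.58 to −0.41), and −1.09 ± 0.20 (adjusted p = 0.00092) with BAPN, where normexp background correction gave −0.53 (adjusted p = 0.00308). Sfrp5 did not pass (0.22 ± 0.19, adjusted p = 0.437, with vehicle).

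Dkk3, an atypical Dickkopf protein with little effect on LRP co-receptors, had levels of 2.85, 3.47, 3.04 and 3.35 on the vehicle ATII arrays and 2.92, 3.05, 3.49 and 3.38 on the BAPN ATII arrays, against 4.34, 4.36, 4.20 and 4.24 on the vehicle fibroblast arrays and 5.20, 4.75 and 4.56 on the BAPN fibroblast arrays. Fibroblasts were higher on every array. This was a log2 change of −1.11 ± 0.18 (adjusted p = 0.000287) with vehicle and −1.63 ± 0.19 (adjusted p = 2.46e-05) with BAPN. Dkk2, an LRP-binding inhibitor, was 0.51 ± 0.17 higher on the log2 scale with vehicle (adjusted p = 0.0337), with overlapping groups, and 0.01 ± 0.18 with BAPN (adjusted p = 0.987). Its vehicle call was lost in 13 of 23 alternative settings, among them leaving out vehicle fibroblast replicate 1, 3 or 4 or vehicle ATII replicate 2 or 4 (0.42 to 0.48). Dkk1 and Dkk4, LRP-binding inhibitors, were each above background on 1 of 15 arrays.

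Some members varied widely within a cell type. Among features above background on every array of a cell type, the median SD over the 7 fibroblast arrays, both treatments together, was 0.35 for 26 members and 0.29 for all 25932 features. Over the 8 ATII arrays it was 0.26 for 29 members and 0.22 for 25769 features. In fibroblasts, Sfrp1, Wnt4 and Fzd4 were each lowest on both arrays numbered 2, at 0.80 and 0.43 for Sfrp1, −3.76 and −2.53 for Wnt4, and 1.29 and 1.14 for Fzd4. These are the arrays with the lowest Msln and Wt1 and the highest Tyrobp levels, and the macrophage marker Cd68 was highest there too, at 2.10 and 2.43 against 1.05 to 1.60. The mean of the 5 mesothelial markers ranged from −4.10 to 1.83 over the fibroblast arrays, and that of the 10 macrophage and leukocyte markers from 0.73 to 1.59. In ATII cells, Wnt10a, Wnt7a, Wnt11 and Wnt7b were each highest on both arrays numbered 1, with Wnt10a at 1.88 and 2.10 against −0.42 to 0.64 elsewhere. The club cell marker Scgb1a1 (3.00 and 3.91, against 0.64 to 2.15) and the ciliated cell marker Foxj1 (0.61 and 0.83, against −1.45 to −0.36) were also highest on these arrays. Of 8 airway markers 3 were highest on both, and 5 were neither highest nor lowest on both. Also highest were 3 of 13 ATII markers (Sftpd, Cdh1 and Epcam), whereas 4 of 14 fibroblast markers (Col1a1, Col1a2, Col3a1 and Acta2) were lowest. Wnt4 was lowest there, at −0.29 and −0.03 against 0.98 to 1.57, as was the mesothelial factor Wt1, at 3.29 and 3.32 against 4.20 to 4.51. Of the 5 mesothelial markers Upk1b was lowest there too, whereas Msln was highest (7.22 and 7.38, against 6.25 to 6.68). The part of other cell types in these patterns was not tested. These genes and markers were picked after their values were seen, so the patterns are descriptions. Without the ATII arrays numbered 1, the vehicle changes of Wnt10a and Wnt7a were 4.13 (adjusted p = 5.86e-06) and 4.07 (adjusted p = 2.54e-06), and 15 members passed with vehicle.

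**Figure D3:**
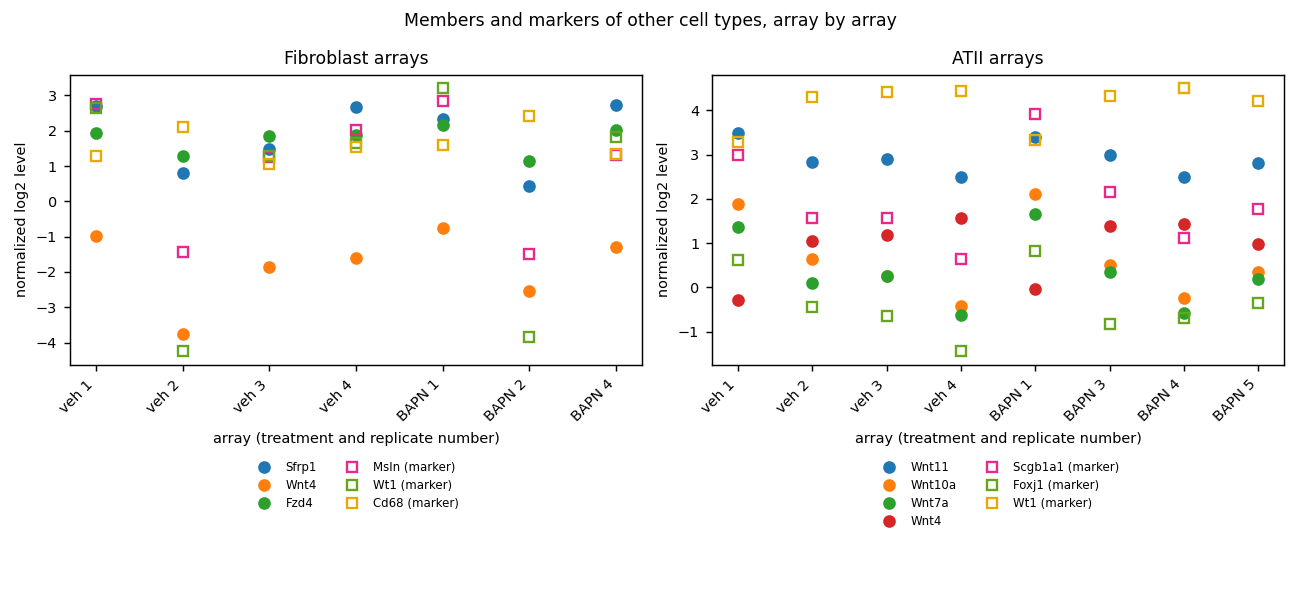
Normalized log2 levels on each array for members (filled circles) and markers of other cell types (open squares): fibroblast arrays on the left and ATII arrays on the right, with treatment and replicate number on the horizontal axis. On the fibroblast arrays numbered 2, Sfrp1 (0.80 and 0.43) and Wnt4 (−3.76 and −2.53) are lowest together with Msln and Wt1. On the ATII arrays numbered 1, Wnt10a and Wnt7a are highest together with Scgb1a1 and Foxj1. Of 8 airway markers 3 were highest on both of these ATII arrays, as were 3 of 13 ATII markers, which are not drawn.

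Other genes of the pathway were listed by role, 113 in all, of which 106 had a probe under their name and 102 were tested. On vehicle arrays 32 were higher and 22 lower in ATII cultures, 52.9% of those tested, with a median log2 change of −0.02, and on BAPN arrays 29 were higher and 25 lower of 101. The share among all tested features was 31.3% and 29.3%. Without the fibroblast arrays numbered 2, 49 of the 54 vehicle calls and 41 of the 54 BAPN-array calls passed again, and without the ATII arrays numbered 1, 49 and 42 did.

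R-spondins are secreted proteins that amplify Wnt signals by clearing the ubiquitin ligases RNF43 and ZNRF3 from the membrane, with LGR proteins as their receptors. Of 8 tested genes of this list, 5 were higher and 1 lower on vehicle arrays. Lgr5, also a Wnt target, had ATII levels of −1.42, −0.68, −0.30 and −0.21 with vehicle and did not rise above background on any of the 7 fibroblast arrays. With the background subtraction of the scanner software, to which such a bound is tied, it was at least 22.7-fold higher in ATII cultures with vehicle. With BAPN it was at least 25.5-fold higher. The adjusted p with vehicle (limma, 1.31e-08) belongs to the fitted change and not to the bound. That fit rests on fibroblast levels below background, and Lgr5 was tested through its ATII arrays alone. Rspo1, which is known from mesothelium and gonad, had levels of 2.29, 3.44, 3.46 and 3.65 on the vehicle ATII arrays and 2.79, 4.10, 4.14 and 3.84 on the BAPN ATII arrays, against −0.11, −2.17, −1.91 and −1.31 on the vehicle fibroblast arrays and −0.01, −2.49 and −1.44 on the BAPN fibroblast arrays. Its lowest ATII values were those of both arrays numbered 1, and its log2 change was 4.59 ± 0.55 (adjusted p = 2.68e-05) with vehicle. Both fibroblast arrays numbered 2 were the lowest for Rspo1, and without them its change was 4.32 (adjusted p = 7.63e-05). Lgr6 rose by 4.78 ± 0.49, Rnf43 by 3.17 ± 0.23 and Znrf3 by 0.39 ± 0.12 on the log2 scale (the Znrf3 call was lost without the ATII arrays numbered 1), whereas Rspo3, a mesenchymal R-spondin, fell by 1.53 (SE 0.30, adjusted p = 0.00155).

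Of 9 tested other secreted or membrane inhibitors, 3 were higher and 3 lower in each comparison. This was 66.7%, where 31.3% of all features passed with vehicle and 29.3% on BAPN arrays. Frzb, which encodes the Sfrp-type inhibitor sFRP3 but does not carry an Sfrp name, had levels of −4.05, −3.11, −4.68 and −4.28 on the vehicle ATII arrays and −5.22, −4.71, −4.04 and −3.92 on the BAPN ATII arrays, against 0.86, −0.50, −0.90 and 1.49 on the vehicle fibroblast arrays and 1.69, −0.74 and 1.22 on the BAPN fibroblast arrays. All fibroblast arrays were higher, with a log2 change of −4.27 ± 0.61 (adjusted p = 0.000109) with vehicle and −5.20 (adjusted p = 4.59e-05) with BAPN. Igfbp4, an IGF-binding protein that also inhibits LRP6, changed by −2.60 ± 0.21 and the adenomatosis down-regulated gene Apcdd1 by −0.80 ± 0.23. Sost (1.41 ± 0.44, above background on 1 of 4 vehicle fibroblast arrays, not called without the ATII arrays numbered 1), Tpbg (1.05 ± 0.21) and Kremen1 (0.44 ± 0.11) were higher.

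Of 20 tested feedback and target genes, 11 were higher and 5 lower on vehicle arrays, and 9 were higher and 4 lower on BAPN arrays. That was 80.0% and 65.0%, where 31.3% and 29.3% of all features passed. Besides Lgr5 and Rnf43, the largest rises were in Sp5 (4.93 ± 0.82, above background on 1 of 4 vehicle fibroblast arrays), Jag1 (3.56 ± 0.14), Tcf7 (3.54 ± 0.25) and Lef1 (2.57 ± 0.32). Axin2, the most general β-catenin target, was above background on all 4 vehicle ATII arrays and on 1 of 4 vehicle fibroblast arrays. Its log2 change was 0.94 ± 0.29 (adjusted p = 0.0244) with vehicle and 1.24 (adjusted p = 0.00876) with BAPN, and the vehicle call was lost without the fibroblast arrays numbered 2. Nkd2 (−1.74 ± 0.16), Fosl1 (−1.61 ± 0.15), Lbh (−1.50 ± 0.13), Ccnd1 (−0.83 ± 0.26) and Twist1 (−0.69 ± 0.17) were lower in ATII cultures, so the list did not move one way. Axin2 and these 5 genes were named after their values were seen. Jag1, Myc, Ccnd1 and others of the list answer to many pathways.

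The remaining lists gave mixed counts. Of 4 tested genes for Wnt secretion, the protease gene Trabd2b (2.17 ± 0.50) and the ligand carrier Wls (0.58 ± 0.16) were higher with vehicle. Of 10 co-receptors and alternative receptors, Lrp4 was higher (2.31 ± 0.34) and Reck (−1.63 ± 0.21) and Adgra2 (−0.57 ± 0.20) lower, and Adgra2 was not called without the fibroblast arrays numbered 2 or without the ATII arrays numbered 1. Of 19 cytoplasmic signalling genes 4 were higher and 3 lower, with Frat1 at 1.40 ± 0.20, the β-catenin gene Ctnnb1 at 0.99 ± 0.08 (adjusted p = 6.73e-07) and Apc2 at −0.79 ± 0.10. Of 14 nuclear factors 5 were higher and 2 lower, led by the TCF/LEF genes Tcf7 and Lef1. Of 24 genes of the planar cell polarity and calcium branches 6 were higher and 6 lower, with Celsr1 at 7.04 ± 0.68 (above background on 3 of 4 vehicle fibroblast arrays), Nfatc2 at 3.35 ± 0.36, Prickle1 at 2.57 ± 0.34 and Prickle2 at −1.83 ± 0.37. Both fibroblast arrays numbered 2 were the lowest for Celsr1, Prickle1 and Trabd2b, whose vehicle changes without them were 6.43 (adjusted p = 7.94e-07), 2.27 (adjusted p = 4.61e-06) and 1.75 (adjusted p = 0.00208). On BAPN arrays Trabd2b no longer passed without them (1.11, adjusted p = 0.0532).

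**Figure D4:**
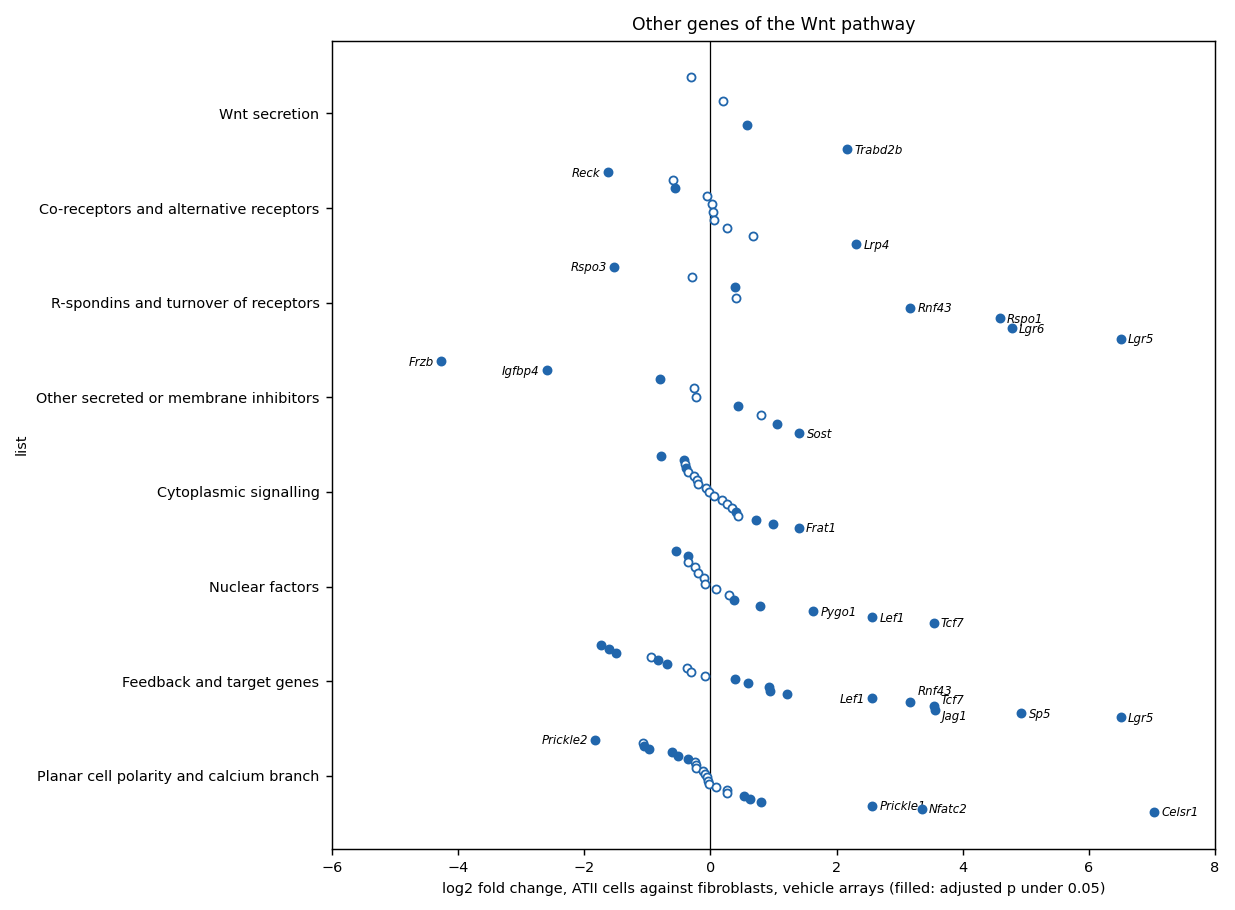
Log2 fold changes of the other tested pathway genes by list, ATII cells minus fibroblasts on vehicle arrays; filled points passed an adjusted p of 0.05, and some genes stand in more than a single list. The points reach 7.04 (Celsr1) and −4.27 (Frzb), and Lgr5, which stands in the R-spondin and the target gene lists, is plotted at its fitted 6.51, which is no bound.

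BAPN changed few members in fibroblasts. Of 30 tested members 2 passed, Fzd3 higher and Sfrp4 lower, which is 6.67%, where 13.4% of 32255 features passed (2.45% higher and 10.9% lower). At an unadjusted p under 0.05 there were 8 members, against 27.1% of features. The median log2 change was 0.03, as over all features. Fzd3 levels were −0.82, −0.92, −0.66 and −0.68 with vehicle and −0.26, −0.28 and −0.37 with BAPN. The groups did not overlap, and the log2 change was 0.47 ± 0.10 (1.38-fold; adjusted p = 0.0128). Sfrp4 levels were −4.05, −4.41, −4.42 and −3.83 with vehicle and −4.45, −5.78 and −4.91 with BAPN, where BAPN replicate 2 was lowest and 2 of 3 BAPN arrays were above background. The fitted log2 change was −0.87 ± 0.25 (adjusted p = 0.0363).

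Spot position moved with these calls. Of the 4310 features that passed, 94.4% came from spots to the right of column 82 (the array has 164 columns), as did 50.2% of tested features. Both Fzd3 and Sfrp4 lie there, with 13 of the 30 tested members, and 0 of the 17 members in the other columns passed. Among all tested features 25.1% of those to the right and 1.5% of the others passed. With the planned correction for spot position alone, Sfrp4 changed by −0.71 (limma, adjusted p = 0.0524), and Dkk3, Fzd3 and Wnt5a passed. After the values were corrected for spot position and brightness, a setting chosen after seeing the data, Sfrp4 changed by −0.22 (adjusted p = 0.515) and Fzd3 by 0.61 (adjusted p = 0.00925). On slide 1 and slide 2 alone Sfrp4 changed by −0.22 and −1.22, and Fzd3 by 0.49 and 0.47, none of which passed. Slide 1 held 1 BAPN fibroblast array, whose spread was assumed to be that of the other groups, and with so few arrays a missed call says nothing of stability. With normexp background correction Fzd3 changed by 0.24 (adjusted p = 0.115) and Sfrp4 by −0.32 (adjusted p = 0.177). Without the fibroblast arrays numbered 2, Fzd3 changed by 0.41 (adjusted p = 0.111) and Sfrp4 by −0.58 (adjusted p = 0.146). Without BAPN replicate 2 alone neither passed (0.45 and −0.50), and Sfrp4 also failed without vehicle replicate 1, 2 or 4 or BAPN replicate 4 (−0.95 to −0.76).

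The next members by unadjusted p were Dkk3, Wnt8a and Fzd6, none of which passed as analysed, though each passed under some alternatives. Dkk3 levels were 4.34, 4.36, 4.20 and 4.24 with vehicle and 5.20, 4.75 and 4.56 with BAPN, without overlap (log2 change 0.55 ± 0.19, adjusted p = 0.0732; 0.69, adjusted p = 0.0229, after correction for spot position). Wnt8a, a dim ligand, had levels of −4.72, −3.93, −4.31 and −3.49 and −5.60, −5.89 and −4.81, with 1 of 3 BAPN arrays above background (−1.32 ± 0.48, adjusted p = 0.0904; −1.64, adjusted p = 0.0455, on slide 2 alone). Fzd6 levels were −0.89, −1.73, −1.49 and −1.78 and 0.00, −1.11 and −1.24, and the groups overlapped (0.69 ± 0.27, adjusted p = 0.111), although Fzd6 passed without vehicle replicate 1 (0.89), with slide as a block (0.77, adjusted p = 0.0391) and on slide 2 alone (0.59, adjusted p = 0.0474). The other Wnt8b probe, above background on 0 of 3 BAPN and 4 of 4 vehicle arrays, passed as lower with BAPN (adjusted p = 0.0115), a change whose size has no exact value here, where the probe that stood for the gene gave −0.21 (adjusted p = 0.773). For 17 of the 30 members the 95% interval of the change lay within 2-fold in either direction. The wide intervals included Sfrp1 (−1.22 to 1.05), Wnt4 (−0.88 to 1.92) and Wnt10a (−1.32 to 1.13), so a change of 2-fold in these was not detectable. Of 100 tested other pathway genes 3 were higher and 6 lower, which is 9.0%, where 13.4% of all features passed. Ryk (0.57 ± 0.17), Camk2b (0.59 ± 0.16) and Csnk1a1 (0.59 ± 0.15) were higher, and Lrp5 (−0.47 ± 0.12), Dkkl1 (−1.22 ± 0.26), Sostdc1 (−1.17 ± 0.36), Celsr2 (−1.17 ± 0.27), Tnks (−0.45 ± 0.14) and Tcf7l2 (−0.37 ± 0.10) were lower. Without the fibroblast arrays numbered 2, 0 of these 9 passed, and without the ATII arrays numbered 1, 5 did.

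No member passed for BAPN in ATII cells. The count was 0 of 31 (limma, Benjamini-Hochberg), where 0.0% of 32045 features passed, and 1 member and 3333 features (10.4%) had an unadjusted p under 0.05. That member was Sfrp2, with levels of −3.30, −3.07, −3.19 and −3.27 with vehicle and −3.54, −3.38, −3.65 and −3.85 with BAPN, without overlap (log2 change −0.40 ± 0.18, adjusted p = 0.464). Wnt9b levels were −3.29, −4.60, −3.26 and −4.75 and −3.02, −3.34, −2.55 and −3.02 (0.99 ± 0.50, adjusted p = 0.464). On slide 2, which held 1 BAPN ATII array, the Wnt9b change was 2.12 (adjusted p = 0.00963), a p-value whose spread comes from the other groups for the lone array. Dkk2 changed by −0.32 ± 0.17 (1.67, 2.02, 1.53 and 1.84 against 1.56, 1.35, 1.32 and 1.55), Wnt8a by −0.72 ± 0.45 (−4.38, −3.47, −5.83 and −3.93 against −4.68, −4.90, −5.70 and −5.20) and Wnt1 by 0.23 ± 0.15 (0.98, 0.33, 0.70 and 0.48 against 0.81, 0.80, 1.04 and 0.74), each list being vehicle and then BAPN, with overlapping groups. The ligands that set ATII cultures apart were close to their vehicle levels, with changes of −0.02 ± 0.25 for Wnt11, 0.09 ± 0.52 for Wnt10a, 0.13 ± 0.46 for Wnt7a, −0.06 ± 0.38 for Wnt7b and 0.01 ± 0.19 for Wnt10b. The 95% intervals were −0.56 to 0.52 for Wnt11 and −1.04 to 1.22 for Wnt10a, and for 22 of 31 members the interval lay within 2-fold. Of 102 other pathway genes 0 passed, and 7 had an unadjusted p under 0.05.

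The BAPN effects in ATII cells and fibroblasts were also compared directly, by subtracting the fibroblast effect from the ATII effect. Here 0 of 32 members and 0.0% of 34287 features passed (limma), while 2 members and 4731 features (13.8%) had an unadjusted p under 0.05. Those members were Fzd3, with a difference of −0.52 ± 0.14 (adjusted p = 0.184), and Wnt5a, with −0.60 ± 0.24 (adjusted p = 0.299). An effect of BAPN on Fzd3 in fibroblasts that differs from that in ATII cells was therefore not shown.

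**Figure D5:**
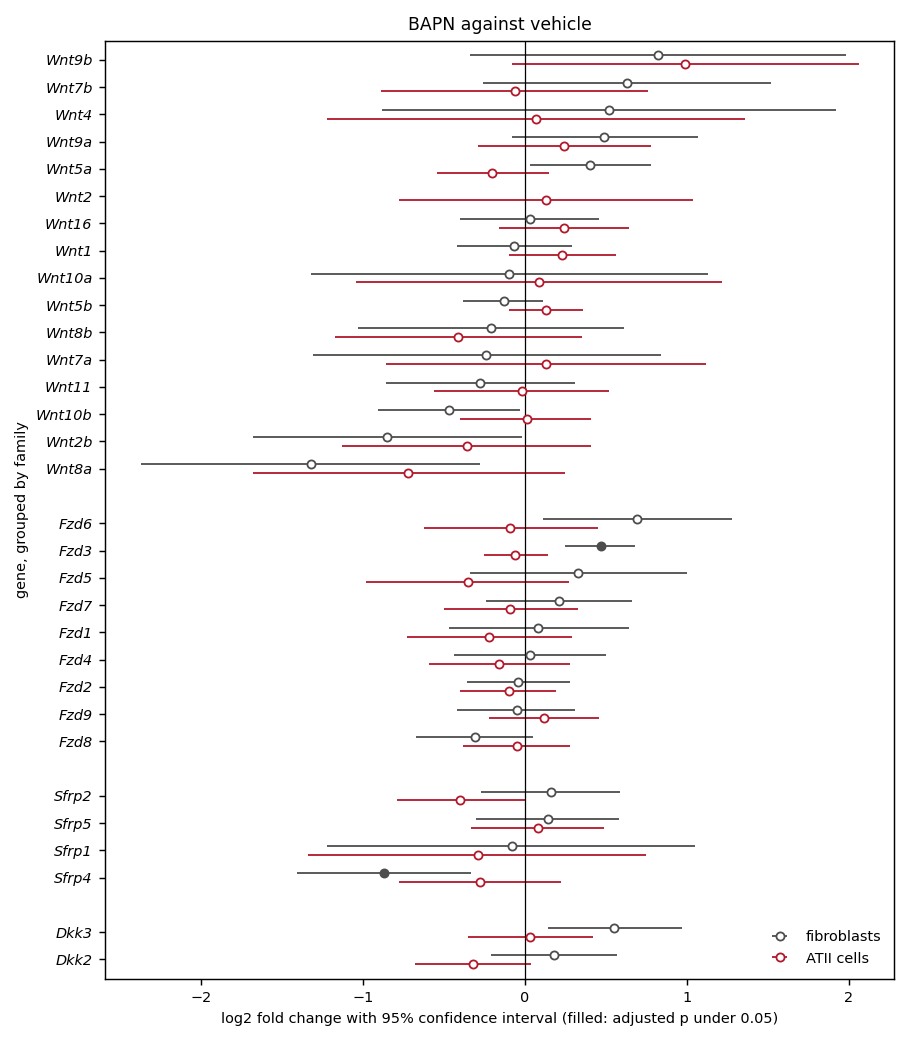
Log2 fold changes of BAPN against vehicle for the tested members, with 95% confidence intervals, in fibroblasts (grey) and ATII cells (red), grouped by family. Filled points passed an adjusted p of 0.05, and they are Fzd3 (0.47) and Sfrp4 (−0.87), both in fibroblasts, and the dim genes Wnt9b, Wnt8a and Wnt2b have wide intervals.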

How the data were processed

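RNA of 15 samples was hybridised to 1-colour Agilent mouse arrays (Cy3). The deposited scanner files hold spot intensity, background-subtracted by Feature Extraction 10.7.3.1 per the file headers, with probe coordinates in mm9. The authors' deposited table of the series is on a log2 scale, and its values show quantile normalization (medians 5.97 to 5.98; r with the own array at least 0.9995), and served as an alternative. Of the 59305 non-control spots, outlier spots were dropped, and the log2 intensities of the spots of a probe were averaged. Probes without a value on some array (469) were left out. From each probe value the 75th percentile of its array, over the remaining non-control probes, was then subtracted. The probe with the highest mean over the 15 arrays stood for a gene. Probes were named by accession (27227), symbol (3468) or older symbol (502), and 24015 had no name.

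Tests were run on features that 3 or more arrays of the compared groups showed well above background. The model (limma 3.58.1, R 4.3.3) took 1 mean for each group from the 15 arrays together (11 residual degrees of freedom), and p-values were adjusted by Benjamini-Hochberg over all features, with a threshold of 0.05. The fit was tested on simulated data. The main fit had no replicate block, and the alternatives were other scalings, filters, slides, spot corrections and left-out arrays. Members and gene lists were chosen with earlier results of these data known. The rule for named genes took every member, with values per array for those called with an absolute log2 change of at least 1, for the brightest member of each family and for 5 members in each BAPN comparison, and up to 6 called genes of each pathway list by size of change. One BAPN ATII sample labelled as a replacement is called replicate 5, and fibroblast BAPN replicate 3 was not analysed here. Promoters came from RefSeq, and plots and tables from Python 3.11.15.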

Additional observations from a re-analysis of the deposited data

Results flagged for a closer look

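Of 111 tests for a sample far from its group, 5 met Dixon's 95% limit, and chance alone marks about 1 in 20 groups. Vehicle ATII replicate 3 had the lowest Wnt5a level, 2.94 against 3.39 for the nearest array. BAPN ATII replicate 3 had the highest Fzd2 level, 4.40 against 4.16. Vehicle fibroblast replicate 2 had the lowest Fzd4 level, 1.29 against 1.86. Fzd10 had a single high array in 2 groups, at −4.08 against −6.97 in vehicle fibroblast replicate 4 and −0.16 against −5.25 in BAPN ATII replicate 3. Fzd10 was above background on 3 of 15 arrays and was left out of the comparisons of ATII cells with fibroblasts. It was tested for the difference of the BAPN effects alone, at 2.44 ± 1.57 (limma, adjusted p = 0.506).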

How the results depend on the processing

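With vehicle, 11 of the 17 members called between cell types kept the call under every alternative that could be fitted (22 for Wnt2 and 23 for the others: Wnt2, Wnt5a, Wnt7a, Wnt7b, Wnt9a, Wnt10a, Wnt10b, Wnt11, Fzd3, Fzd6 and Dkk3), and on BAPN arrays 9 of 19 did (21 alternatives for Wnt2 and Sfrp4 and 22 for the others: Wnt2, Wnt7a, Wnt7b, Wnt10a, Wnt10b, Wnt11, Fzd6, Sfrp4 and Dkk3). Leaving out each replicate in turn gave 15 to 16 calls with vehicle, 16 to 20 on BAPN arrays, 0 to 3 for BAPN in fibroblasts, and 0 for BAPN in ATII cells and for the difference. On slide 2 alone 7 members were called on BAPN arrays and 7 for BAPN in fibroblasts, with fewer samples, and 1 for BAPN in ATII cells. For BAPN in fibroblasts the count of 2 was 1 with quantile scaling, the deposited table, no filter on dim probes, the correction for spot position and brightness, or without the ATII arrays numbered 1, and that call was Fzd3. It was also 1 on slide 1 alone, where the call was Wnt9b, and neither Fzd3 nor Sfrp4 was among the 7 on slide 2. The count was 0 with normexp background correction, with only the arrays of the groups compared, or without the fibroblast arrays numbered 2. With the replicate block, counts were 17 with vehicle, 14 on BAPN arrays and 0 for BAPN in fibroblasts, in ATII cells and for the difference. The replicate numbers did not meet the bar set for pairing, a correlation of deviations over 0.1 for every pair: correlations were −0.08, 0.10 and −0.04 in fibroblasts and 0.23, −0.15 and −0.15 in ATII cells, although both fibroblast arrays numbered 2 and both ATII arrays numbered 1 stood apart for some genes. Signs were compared for the called members and for those with values per array in each BAPN comparison. Among these results, reversed signs were seen for BAPN in ATII cells alone. They were Wnt8a at 0.17 and Wnt1 at −0.06 on slide 1, and Wnt1 at −0.22 with probes averaged. Wnt9b for BAPN in fibroblasts was outside that set, and its sign differed between the slides. Its change was 0.82 as analysed, −1.08 on slide 1, which held 1 BAPN fibroblast array, and 2.10 on slide 2. The cause of these changes was not tested.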
